A study of Mus musculus with 8 samples.

Results

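The genes described here encode S100 calcium-binding proteins, and 10 of the 24594 genes of the deposited table were chosen by name and found through their Entrez Gene ID: S100a1, S100a4, S100a6, S100a8, S100a9, S100a10, S100a11, S100a13, S100a14 and S100a16. They were compared between 4 libraries of luminal progenitors (LP), sorted as c-Kit high, and 4 libraries of mature luminal cells, sorted as c-Kit low, from the mammary gland of virgin wild type C57BL/6J mice with no treatment. Cells of the blood and endothelial lineages were marked with antibodies to TER-119, CD31 and CD45. The labels list EpCAM, CD49f, c-Kit and CD14 as the sorting markers, while the text of the study names c-Kit alone for these fractions, so whether CD14 entered this sort is not known. The mice of the study were 12 to 20 weeks old, with no age given per library. The methods of the study describe its RNA sequencing samples as biological replicates, but in a number other than the 4 per fraction here. The labels do not say which libraries came from separate animals. The p-values therefore measure the spread between these libraries, and how much of it is technical is not known. LP and mature libraries share replicate numbers, and the descriptions of an LP and a mature library with the same number open with the same identifier. What the identifier marks is not stated. The main fit did not pair these libraries, and a fit with the number as a replicate block is among the alternatives.

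S100 proteins are small proteins with a pair of EF-hands, the helix-loop-helix motif that holds a calcium ion. Most form dimers that change shape when calcium binds and then attach to partners such as annexins, the cytoskeleton or enzymes. Some, above all S100a8 and S100a9 of neutrophils, are released from cells and act on receptors such as Tlr4 and the product of Ager, and several members are also made by epithelial cells, the mammary epithelium among them.

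Of the 10 S100 genes, S100a16 was higher in LP and S100a13 and S100a6 were higher in mature cells. S100a1, S100a10, S100a11 and S100a14 were not called in either direction, and S100a4, S100a8 and S100a9 had too few counts to be tested. A gene is called here when its adjusted p-value from the quasi-likelihood F-test of edgeR is under 0.05, and a positive log2 fold change means a higher level in LP. By the same rule 24.7% of the 12816 genes tested were called in either direction, 10.9% as higher in LP and 13.8% as higher in mature cells, against 3 of 7 tested S100 genes in all, 1 in LP and 2 in mature cells. With 7 genes these counts do not set the family apart from the rest of the table. The median log2 fold change of the 7 genes was -0.26, beside 0.0 over all genes tested.

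Library totals ran from 5510863 to 7089597 counts in LP and from 4410049 to 7791593 in mature cells, and the S100 genes together took 0.111% to 0.171% of the counts of a library. The tested S100 genes had 215 to 4844 counts in each library. Kit RNA was higher in LP, by 2.96 on the log2 scale (SE 0.46, adjusted p = 0.00143). Cd14 was higher by 6.25 (SE 0.48, adjusted p = 0.000104), and both are no finding where they served the sort. Elf5, a transcription factor of progenitors, was higher in LP by 2.02 (SE 0.40, adjusted p = 0.00524). Pgr, the progesterone receptor, was higher in mature cells, with a log2 fold change of -2.91 (SE 0.38, adjusted p = 0.000678). Of the LP marker list, 3 of 4 genes were called as higher in LP. They were Elf5, Kit, which served the sort, and Cd14, which may have served it. Aldh1a3, the other LP gene, had a log2 fold change of 1.37 and was not called (adjusted p from edgeR 0.0512). Of the mature list, 5 of 5 genes were called as higher in mature cells.

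S100a16 (Entrez Gene ID 67860; GRCm38.p6 chromosome 3, 90537254 to 90543151, plus strand) encodes a broadly expressed S100 protein. Levels are given in CPM, counts scaled by TMM factors to a common library size. S100a16 stood at 387, 494, 403 and 546 CPM in LP replicates 1 to 4 and at 297, 320, 268 and 308 CPM in mature replicates 1 to 4. All 4 LP libraries lay above all 4 mature libraries. Its mean was 457.5 ± 75.4 CPM in LP and 298.5 ± 22.1 CPM in mature cells (SD, n = 4), and the log2 fold change was 0.62 (SE 0.16), 1.53-fold, with an adjusted p from edgeR of 0.0192. Without LP replicate 2 the adjusted p was 0.0564, and without LP replicate 4 it was 0.0592, with log2 fold changes of 0.58 and 0.52.

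S100a13 (Entrez Gene ID 20196; chromosome 3, 90514233 to 90524581, plus strand) encodes a protein known for the release of Fgf1 and Il1a, which lack a signal peptide. It stood at 44.1, 53.3, 40.8 and 51.1 CPM in LP replicates 1 to 4 and at 88.5, 84.3, 78.0 and 78.5 CPM in mature replicates 1 to 4. Every mature library was above every LP library, and both groups were narrow. The means were 47.3 ± 5.84 and 82.3 ± 5.01 CPM (SD, n = 4), 1.74-fold higher in mature cells, with a log2 fold change of -0.80 (SE 0.16) and an adjusted p from edgeR of 0.00460. S100a13 was called under all 16 alternatives tried, with adjusted p-values from 0.000109 to 0.0199. Over all genes tested, the libraries of the fractions did not overlap in 29.5%, with LP higher in 14% and mature cells higher in 15.5%. Among the tested S100 genes this held for 1 gene each way, S100a16 and S100a13.

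S100a6, calcyclin (Entrez Gene ID 20200; chromosome 3, 90612894 to 90614414, plus strand), binds annexins and the product of Cacybp. It stood at 285, 293, 187 and 342 CPM in LP replicates 1 to 4 and at 681, 843, 304 and 472 CPM in mature replicates 1 to 4. Mature replicate 3 was below LP replicate 4, so the groups overlapped, and mature replicates 1 and 2 were the highest of all. The means were 276.8 ± 64.8 and 574.9 ± 235.9 CPM (SD, n = 4), 2.08-fold higher in mature cells, with a log2 fold change of -1.05 (SE 0.30) and an adjusted p from edgeR of 0.0278. The call was lost in 5 of the 8 fits that leave out a library: without LP replicate 1, 2 or 3 the adjusted p was 0.0657, 0.0652 or 0.0765, and without mature replicate 1 or 2 it was 0.0680 or 0.0789. The log2 fold change stayed between -1.23 and -0.79 over the 16 alternatives.

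The summed level of 6 fibroblast markers was also highest in mature replicates 1 and 2, at 138 and 179 CPM, against 28.3 and 27.0 CPM in mature replicates 3 and 4 and 7.35 to 41.7 CPM in LP. Most of that sum in mature replicates 1 and 2 was Dcn, with 939, 587, 98 and 137 counts in mature replicates 1 to 4. Of the 6 markers, 5, 5, 6 and 4 had a count in these libraries. Lum had 19, 21, 25 and 35 counts there, and Pdgfra 4, 62, 19 and 1. Col3a1 had 13, 10, 16 and 0, Col1a2 6, 3, 28 and 6, and Col1a1 0, 0, 10 and 0. Dcn alone of the 6 was higher in both replicates 1 and 2 than in replicates 3 and 4. The 8 basal myoepithelial markers summed to 4.02 to 18.0 CPM in LP and 8.86 to 51.1 CPM in mature cells, highest in mature replicate 3, where S100a6 was lowest of its group. The 4 LP markers summed to 244, 355, 966 and 715 CPM in mature replicates 1 to 4, also highest in replicate 3. Of these sums in mature replicates 1 to 4, Aldh1a3, which was not called, held 60.1, 195, 354 and 378 CPM. In LP the sum of the 4 LP markers was 13570 to 20040 CPM, and Cd14 alone held 12140 to 18320 CPM of it. The part of these markers in the S100a6 difference was not tested. In sorted bulk samples, fewer cells of a type and less RNA per cell cannot be told apart.

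**Figure D1:**
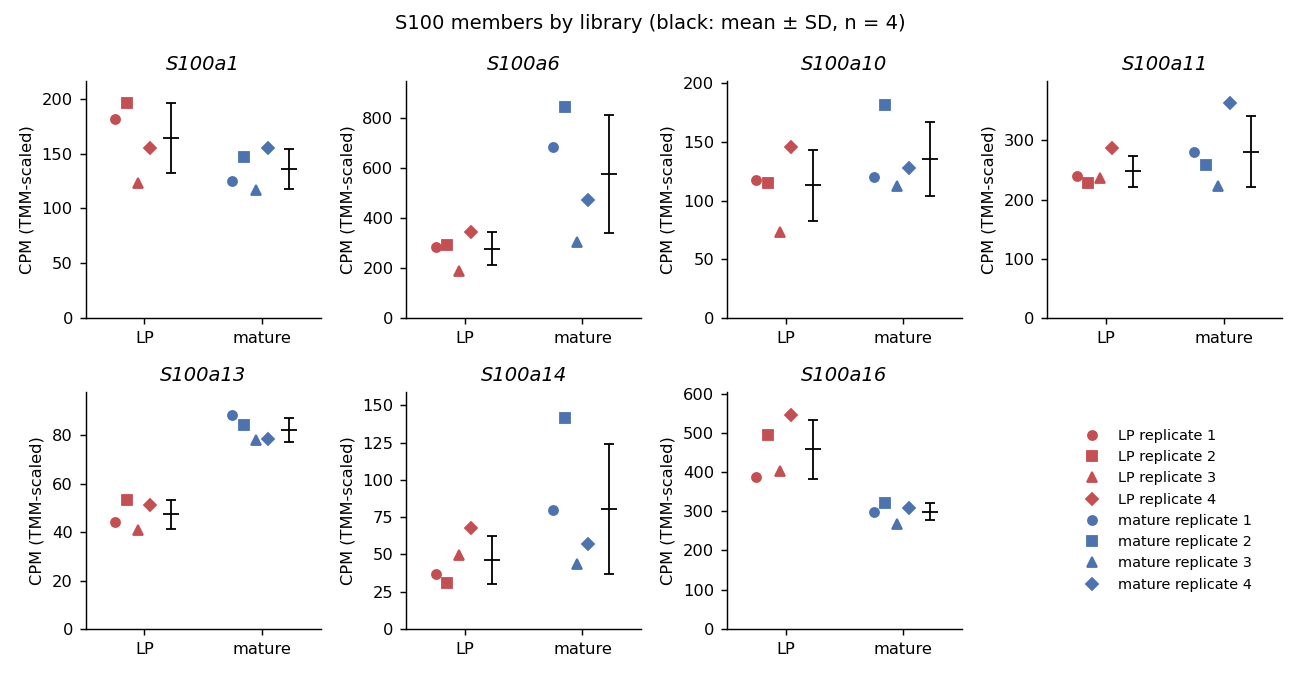
Level of each tested S100 gene in each library. The vertical axis is CPM with TMM scaling, from 0 on a linear scale. Colours mark the LP and mature libraries, symbols the replicates, and black bars the mean ± SD (n = 4). The 4 LP libraries of S100a16 lie above its mature libraries, those of S100a13 lie below, and the groups of the other 5 genes overlap.

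S100a14, a member found mostly in epithelia (Entrez Gene ID 66166; chromosome 3, 90526849 to 90528837), stood at 37.2, 30.9, 49.6 and 67.7 CPM in LP replicates 1 to 4 and at 80.0, 142, 43.5 and 57.0 CPM in mature replicates 1 to 4. The groups overlapped, and mature replicate 2 alone was above 100 CPM. The log2 fold change was -0.79 (SE 0.37, adjusted p from edgeR 0.141), close to that of S100a13 in size but with an interval from -1.60 to 0.02. All intervals of log2 fold changes given here are at 95% and unadjusted. Without mature replicate 2 the S100a14 log2 fold change was -0.35.

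S100a1 (Entrez Gene ID 20193; chromosome 3, 90511034 to 90514330, minus strand), known for its work on calcium release in muscle, stood at 181, 196, 123 and 155 CPM in LP replicates 1 to 4 and at 125, 147, 117 and 155 CPM in mature replicates 1 to 4. The groups overlapped, and the log2 fold change was 0.27 (SE 0.18, adjusted p from edgeR 0.302), with an interval from -0.13 to 0.67.

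S100a10, also called p11 (Entrez Gene ID 20194; chromosome 3, 93555117 to 93564645, plus strand), forms a complex with annexin A2 under the plasma membrane. It stood at 118, 115, 73.4 and 146 CPM in LP replicates 1 to 4 and at 120, 182, 112 and 128 CPM in mature replicates 1 to 4. The log2 fold change was -0.26 (SE 0.23, adjusted p from edgeR 0.449), with an interval from -0.76 to 0.25. S100a11 (Entrez Gene ID 20195; chromosome 3, 93520496 to 93526288, plus strand), a partner of annexin A1, stood at 239, 228, 237 and 286 CPM in LP and at 279, 258, 223 and 363 CPM in mature cells. Its log2 fold change was -0.18 (SE 0.18, adjusted p from edgeR 0.495), with an interval from -0.57 to 0.21, and it was -0.0038 without mature replicate 4. Of the 51-base words in S100a11 exons, 41.0% also occur in transcripts of the genes Gm12854, Gm7665 and Gm29240. How reads that match several places were counted is not given in the sources used here, so the S100a11 level is uncertain. These intervals allow differences of up to 0.76 in S100a10 and 0.57 in S100a11 on the log2 scale, so they do not show equal levels.

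The calcium-binding pair of neutrophils was near the limit of detection. S100a8 had 4, 0, 7 and 7 counts in LP replicates 1 to 4 and 0, 1, 0 and 8 in mature replicates 1 to 4. S100a9 had 0, 0, 3 and 18 counts in LP and 0, 0, 0 and 4 in mature cells. A count of 0 allows up to 3 counts, between 0.416 and 0.788 CPM by library, for counting error only. Ly6g, a defining neutrophil gene, had 0 counts in all 8 libraries, Ptprc, the pan-leukocyte CD45, had at most 2, and Csf3r had at most 2. Granule genes of the same list had a few counts. Ngp had 0, 1, 4 and 3 in LP and 1, 0, 0 and 0 in mature cells. Mpo had 0, 2, 8 and 0 in LP and 0, 6, 0 and 0 in mature cells. Camp had 0, 0, 0 and 2 in LP and 1, 1, 0 and 4 in mature cells. Elane had 2 counts in LP replicate 3 and Retnlg 1 in LP replicate 4, with 0 elsewhere. Whether neutrophils gave the S100a8 and S100a9 counts was not tested. The sum of the 14 neutrophil and macrophage markers, 44.7 to 58.0 CPM in LP and 11.6 to 50.2 CPM in mature cells, was mostly Cd68. S100a4, linked to motile cells and to non-muscle myosin, had 5, 10, 0 and 9 counts in LP and 10, 22, 9 and 7 in mature cells. Of its exon bases, 302 of 584 lie within Gm42674 on the same strand, a gene that the table does not list, so even these counts are uncertain. In an edgeR fit with no filter on low counts the adjusted p-values were 0.412 for S100a4, 0.701 for S100a8 and 0.424 for S100a9.

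**Figure D2:**
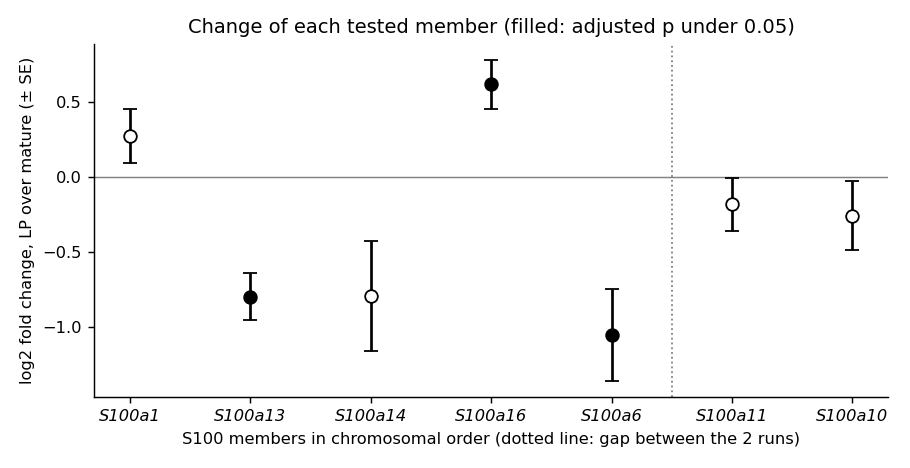
Log2 fold change of the 7 tested S100 genes, LP over mature. The horizontal axis lists the genes in chromosomal order, bars are ± SE of the edgeR fit, and filled points have an adjusted p under 0.05. S100a16 is at 0.62 and lies between genes with negative values, S100a14 at -0.79 and S100a6 at -1.05.

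All 10 S100 genes lie on chromosome 3, in a pair of runs that are 2825 kb apart. The first, 90511034 to 90695721, spans 184.7 kb and holds 8 of them, and the second, 93520496 to 93564645, spans 44.1 kb and holds S100a11 and S100a10. Called genes of the first run differed in direction. S100a13 and S100a16, with S100a14 between them, had log2 fold changes of -0.80 and 0.62. S100a1 and S100a13 are arranged head to head on opposite strands, with log2 fold changes of 0.27 and -0.80. The RefSeq span of S100a13 begins at 90514233 and overlaps S100a1 by 98 bases, while the start used for its promoter window is 90514435, which leaves 104 bases between the genes. The use of strand in the counting is not given in the sources used here, so any reads from the 98 bases cannot be placed.

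The ratio of 2 genes within a library does not depend on library scaling. S100a16 counts were 8.78, 9.26, 9.86 and 10.7 times those of S100a13 in LP replicates 1 to 4 and 3.36, 3.80, 3.44 and 3.92 times in mature replicates 1 to 4. S100a1 counts were 3.02 to 4.11 times those of S100a13 in LP and 1.42 to 1.97 times in mature cells. S100a16 counts were 1.36 to 2.15 times those of S100a6 in LP and 0.380 to 0.882 times in mature cells, so the larger count of the pair changed between the fractions. These 3 ratios did not overlap between the groups. Counts do not allow for gene length. Per kilobase of the longest transcript, S100a6 was above S100a16 in LP replicate 1, at 365 against 344, and below it in the other LP libraries. The ratio of S100a6 to S100a13 overlapped, 4.58 to 6.69 in LP and 3.90 to 9.99 in mature cells, as did that of S100a10 to S100a11. The 5 pairs were chosen after the values were seen, so their ratios are a description with no test.

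**Figure D3:**
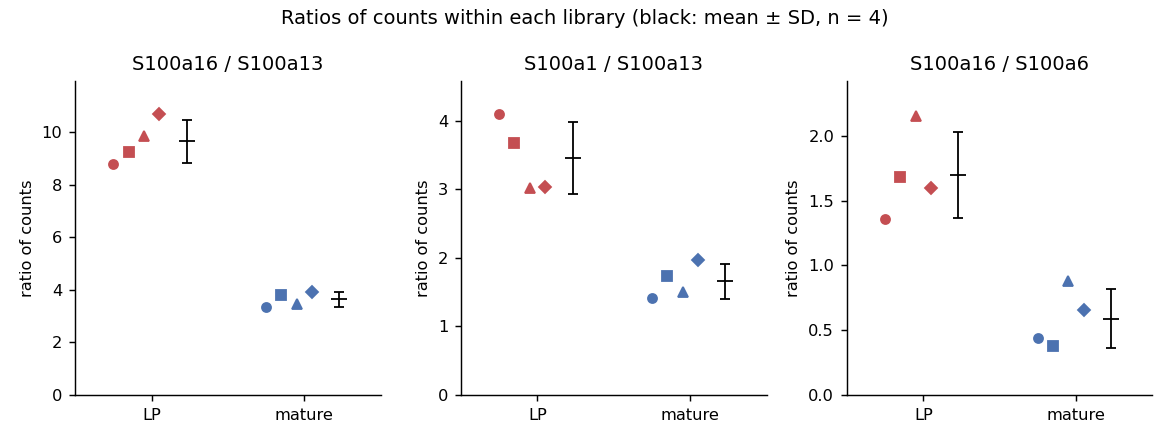
Ratio of counts of S100 gene pairs within each library, for S100a16 over S100a13, S100a1 over S100a13 and S100a16 over S100a6. Vertical axes are linear and start at 0, red symbols are LP libraries, blue symbols mature libraries, and black bars the mean ± SD (n = 4). No LP library overlaps a mature library in any of the 3 panels.

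The sequences upstream of the starts of these genes are shown because neighbours differed in direction and because the S100a13 and S100a1 windows share a stretch. RefSeq promoter windows matched 8 of the 10 genes, with 9 windows, and the 250 bases before the start of each window's transcript are printed 5′ to 3′ on the strand of the gene, from GRCm38.p6. S100a10 and S100a14 had no entry. The S100a13 window is chr3:90514185-90514434 on the plus strand and the S100a1 window is chr3:90514331-90514580 on the minus strand, and capitals mark the 104 bases that both hold, one as the reverse complement of the other. Of the 250 bases of the S100a13 window, 202 lie inside the wider RefSeq span of the gene, and upstream there means upstream of the start at 90514435.
S100a13: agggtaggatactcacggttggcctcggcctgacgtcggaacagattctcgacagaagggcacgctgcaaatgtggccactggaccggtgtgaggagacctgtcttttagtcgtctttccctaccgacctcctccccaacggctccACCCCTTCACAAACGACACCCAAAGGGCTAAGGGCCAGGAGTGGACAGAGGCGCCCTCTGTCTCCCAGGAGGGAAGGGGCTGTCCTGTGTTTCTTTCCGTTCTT
S100a1: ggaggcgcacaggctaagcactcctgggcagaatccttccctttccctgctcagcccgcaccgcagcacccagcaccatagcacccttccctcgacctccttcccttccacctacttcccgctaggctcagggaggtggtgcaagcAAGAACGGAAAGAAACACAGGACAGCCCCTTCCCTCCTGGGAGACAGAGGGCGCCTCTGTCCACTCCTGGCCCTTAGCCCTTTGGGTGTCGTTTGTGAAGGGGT

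S100a16 has a pair of annotated starts. Its first window is chr3:90537004-90537253 and its second chr3:90540896-90541145, and the S100a6 window is chr3:90612644-90612893, all on the plus strand. Capitals mark motif matches.
S100a16, first start: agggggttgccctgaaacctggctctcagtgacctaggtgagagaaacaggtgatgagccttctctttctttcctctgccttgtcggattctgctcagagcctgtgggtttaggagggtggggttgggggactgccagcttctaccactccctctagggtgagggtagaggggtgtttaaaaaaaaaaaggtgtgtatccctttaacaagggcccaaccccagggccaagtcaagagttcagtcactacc
S100a16, second start: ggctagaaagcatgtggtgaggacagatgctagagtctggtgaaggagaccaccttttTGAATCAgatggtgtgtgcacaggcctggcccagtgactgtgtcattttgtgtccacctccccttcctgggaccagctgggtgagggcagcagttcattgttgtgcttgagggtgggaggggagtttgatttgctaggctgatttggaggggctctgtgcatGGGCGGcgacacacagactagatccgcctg
S100a6: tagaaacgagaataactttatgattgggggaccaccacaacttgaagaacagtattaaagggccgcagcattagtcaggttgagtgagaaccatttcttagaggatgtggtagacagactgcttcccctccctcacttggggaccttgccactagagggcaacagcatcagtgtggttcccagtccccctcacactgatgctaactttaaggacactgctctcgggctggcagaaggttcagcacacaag

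The windows were searched on both strands for 6 motifs, and no matches in the S100 windows overlapped each other. Of 32851 RefSeq windows of the same length, 12.4% held the TATA box, searched as TATAAA. The GC box, searched as GGGCGG, was in 32.7% of them. The AP-1 motif, searched as TGANTCA, was in 6.75%, and the GATA motif, searched as GATAA, was in 22.6%. The TEAD motif, searched as GGAATG, was in 12.6%, and the CArG box was in 1.47%. The second S100a16 window held an AP-1 match at -192 to -186 and a GC box at -30 to -25, counted back from the start. The S100a13, S100a1, S100a6 and first S100a16 windows held none of the 6. S100a11 held 3 GC boxes, 2 AP-1 matches and 1 GATA match in chr3:93520246-93520495, in capitals below. S100a8, almost without counts, held a TATA box at -30 to -25 in chr3:90668821-90669070, also in capitals, and S100a4 held one at -31 to -26. The S100a9 window held a GC box at -223 to -218 and a GATA match at -29 to -25. A match is only the letters, and a window without one says nothing of the factor.
S100a11: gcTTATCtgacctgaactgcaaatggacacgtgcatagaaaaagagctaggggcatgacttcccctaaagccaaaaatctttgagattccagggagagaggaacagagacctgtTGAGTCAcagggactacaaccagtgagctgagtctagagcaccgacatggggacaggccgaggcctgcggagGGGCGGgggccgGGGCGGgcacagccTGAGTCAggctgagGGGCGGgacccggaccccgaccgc
S100a8: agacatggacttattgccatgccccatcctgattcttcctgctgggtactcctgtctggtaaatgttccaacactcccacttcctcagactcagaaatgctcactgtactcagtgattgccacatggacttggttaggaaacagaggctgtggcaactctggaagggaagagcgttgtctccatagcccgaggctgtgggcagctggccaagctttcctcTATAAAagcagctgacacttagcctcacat

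Levels between S100 genes were compared as CPM per kilobase of exon. In LP the mean levels per kilobase were highest for S100a11 at 485, followed by S100a16 at 283, S100a1 at 236, S100a6 at 202.5, S100a10 at 93.3, S100a13 at 66.2 and S100a14 at 26.8. In mature cells the order was S100a11 at 550, S100a6 at 421, S100a1 at 196, S100a16 at 185, S100a13 at 115, S100a10 at 112 and S100a14 at 46.7. S100a4, S100a8 and S100a9 stood at 4.08 or below in both fractions. Libraries of neighbours in the LP order overlapped for S100a16 with S100a1, S100a1 with S100a6 and S100a10 with S100a13. In the mature order they overlapped for S100a11 with S100a6, S100a6 with S100a1, S100a1 with S100a16 and S100a13 with S100a10. S100a6 thus ranked 4 in LP and 2 in mature cells, and S100a16 ranked 2 in LP and 4 in mature cells. These ranks depend on the length used. With the longest transcript in place of all exons, S100a6 ranked 3 in LP and 1 in mature cells, at 734 against 550 for S100a11, and S100a16 ranked 2 in LP and 3 in mature cells. The LP level then moved from 202.5 to 354 for S100a6 and from 93.3 to 165 for S100a10.

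The summed level of the 10 genes per kilobase was 1396 ± 180 in LP and 1629 ± 286 in mature cells (SD, n = 4), and the groups overlapped. Scaled by library totals in place of TMM factors, the means were 1485 and 1514. S100a16 made up 17.6% to 21.2% of it in LP and 10.5% to 13.6% in mature cells, and S100a6 made up 11.6% to 15.5% in LP and 18.2% to 32.6% in mature cells. S100a13 took 4.43% to 5.18% in LP and 6.24% to 8.92% in mature cells. S100a11 held 34.9% ± 3.44 in LP and 34.1% ± 6.08 in mature cells (SD, n = 4), with overlap. Shares of 1 sum depend on each other, and they are given without a test.

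**Figure D4:**
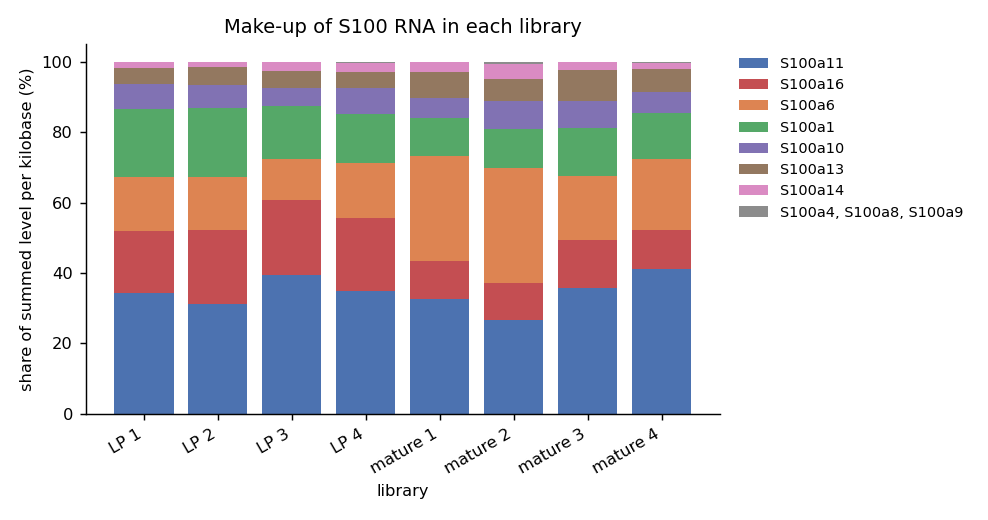
Make-up of S100 RNA in each library. Bars are the 4 LP and 4 mature libraries, and the vertical axis is the share of the summed level per kilobase in percent, from 0 to 100. The S100a16 segment is 17.6% to 21.2% in LP and 10.5% to 13.6% in mature cells, and the S100a6 segment is larger in every mature library.

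The 4 other genes of the first run are S100 genes as well. S100a7a had 5, 0, 2 and 0 counts in LP and 13, 8, 21 and 13 in mature cells, a log2 fold change of -3.00 (SE 0.94, adjusted p from edgeR 0.0394) that lost its call in 9 of the 14 alternatives that tested it. S100a3 had 2 counts over the LP libraries and 22 over the mature libraries. S100a2 had 16 counts in 2 mature libraries and 0 in LP, S100a5 had 0 throughout, and none of the 3 passed the filter. Elsewhere in the genome, S100g, the vitamin D-responsive calbindin of the gut, had 31, 62, 4 and 23 counts in LP and 0, 5, 18 and 0 in mature cells, and was not called (adjusted p from edgeR 0.215).

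Annexins bind membranes and are the best known partners of S100 proteins. Of 12 annexin genes, 10 were tested, 1 was higher in LP and 1 was higher in mature cells, with a median log2 fold change of -0.16. Beside the 24.7% called over all genes tested, these are 2 of 10 annexins, and 6 of 13 receptors and partners and 7 of 25 EF-hand genes are described below. The annexin count rests on single libraries: without mature replicate 3 it was 3 in LP and 4 in mature cells. Under the replicate block it was 2 in LP, and with DESeq2 it was 2 in mature cells. Anxa2, the partner of S100a10, was higher in mature cells. It stood at 977, 987, 1031 and 1101 CPM in LP and at 2495, 3186, 1560 and 1207 CPM in mature cells, with no overlap. The log2 fold change was -1.04 (SE 0.28, adjusted p from edgeR 0.0216), and this only annexin call in mature cells was lost without LP replicate 1, 2 or 3 or mature replicate 1 or 2, with adjusted p-values from 0.0527 to 0.0628. Its highest libraries were mature replicates 1 and 2, as for S100a6. S100a10 itself differed by -0.26, which was not called. Anxa9 was higher in LP by 2.29 (SE 0.32, adjusted p from edgeR 0.000859). Anxa1, the partner of S100a11, had a log2 fold change of -0.66 and was not called (adjusted p from edgeR 0.167).

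Of 17 receptors and other partners of S100 proteins, 13 were tested, 3 were higher in LP and 3 were higher in mature cells, with a median of 0.0056. Tlr4, a receptor for S100a8 and S100a9, was higher in LP by 1.79 (SE 0.36, adjusted p from edgeR 0.00551), although the counts of both ligands were near 0. Ager, another receptor of these ligands, had 9 counts in LP and 0 in mature cells. Trpv6, a calcium channel brought to the membrane by S100a10 and annexin A2, had 335 counts in LP and 0 in mature cells, at least 101-fold higher in LP when the mature group is set to 3 counts in all. Cyba, a subunit of the phagocyte oxidase, was higher in LP by 0.67 (SE 0.19, adjusted p from edgeR 0.0293), and lost its call without LP replicate 3 or 4 or mature replicate 1 or 2, with adjusted p-values from 0.0698 to 0.0866. Cybb, another subunit of that oxidase, had 0, 0, 5 and 0 counts in LP and 0 in mature cells, too few to be tested.

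On the mature side, Bsg, a receptor for S100a9, had a log2 fold change of -1.14 (SE 0.32, adjusted p from edgeR 0.0251) and lost its call in 7 alternatives. Bsg was highest in mature replicates 1 and 2, at 4465 and 5696 CPM, against 2263 and 2012 CPM in mature replicates 3 and 4. Myh9, the non-muscle myosin bound by S100a4, was at -0.97 (SE 0.17, adjusted p from edgeR 0.00298), and Sugt1, which binds S100a6, at -0.71 (SE 0.17, adjusted p from edgeR 0.0114). Cacybp, the S100a6-binding protein, was at -0.44 and was not called (adjusted p from edgeR 0.0629). Fgf1, cargo of S100a13, was at -1.63 and was not called either (adjusted p from edgeR 0.0671).

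Among 32 other EF-hand proteins, 25 were tested, 3 were higher in LP and 4 were higher in mature cells, with a median of 0.06. The count in LP was 5 without mature replicate 4 and 6 with DESeq2. Efhd2, a calcium-binding regulator of actin, was higher in LP by 1.24 (SE 0.22, adjusted p from edgeR 0.00298), and Calm3, a calmodulin gene, by 0.79 (SE 0.23, adjusted p from edgeR 0.0289). Calm3 lost its call in 3 of the 8 fits that leave out a library. Hpcal1, Rcn1, Capn2 and Sdf4 were higher in mature cells, with log2 fold changes of -1.62, -0.66, -0.56 and -0.55. Capn2 lost its call in 7 of 16 alternatives, among them no filter on low counts (adjusted p from edgeR 0.0786). Of 7 genes for S100-fused proteins of the skin barrier, 6 were in the table and 0 passed the filter on low counts.

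**Figure D5:**
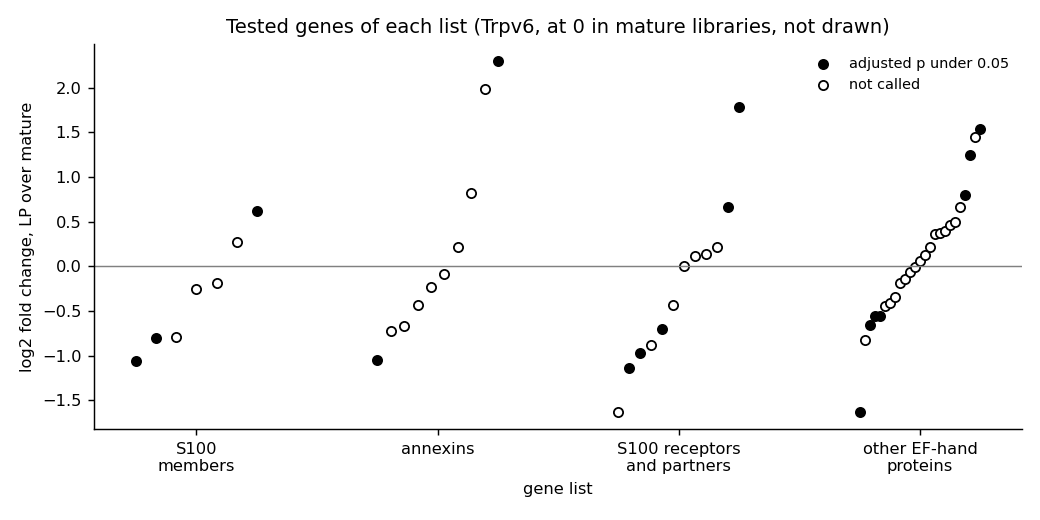
Log2 fold change, LP over mature, of each tested gene of the S100 group, the annexins, the S100 receptors and partners and the other EF-hand proteins. Each point is a gene, ordered within its list, and filled points have an adjusted p under 0.05. Trpv6, at 0 in the mature libraries, is not drawn, and each list holds filled points above and below 0.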

How the data were processed

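RNA of sorted LP and mature luminal cells was sequenced in 4 libraries each, amplified from picogram amounts of RNA. The authors trimmed reads with cutadapt 4.2, aligned them with Bowtie2 2.3.5.1 (both versions from the submitters' processing notes) to mm10 and deposited raw counts per gene by Entrez Gene ID, with no normalization. The counting program, its annotation and its treatment of strand are not given in the sources used here. The S100 genes and the other lists were chosen with earlier results of these data known.

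Symbols, positions and promoters came from RefSeq (GRCm38.p6), and 24570 of 24594 IDs matched. Exon lengths came from GENCODE vM21 on GRCm38, where RefSeq lengths had been planned. Genes with a count in any library numbered 18975. In edgeR 4.0.16 with limma 3.58.1 and R 4.3.3, filterByExpr by fraction left 12816 genes, TMM factors scaled the libraries, and the fractions were tested for a difference with the quasi-likelihood F-test and Benjamini-Hochberg adjustment over all of them. SE is the absolute log2 fold change divided by the square root of F, and intervals use the t distribution with the degrees of freedom of the fit. The common biological coefficient of variation was 0.393. Alternatives were RLE and upper-quartile factors, no filter, a minimum of 10 counts in each library, DESeq2 1.42.0, the edgeR exact test, a replicate block, thinning to the smallest library and each library left out. The pipeline was tested on simulated data. No 2 libraries of a fraction agreed within sampling noise (chi-square per degree of freedom 11.95 to 89.0). Replicates 1 and 2 were the closest pair in both fractions, at 11.95 in LP and 14.65 in mature cells. The other pairs stood at 20.51 to 29.32 in LP and 50.14 to 89.0 in mature cells.

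The genes named are the 10 S100 genes, the genes between them on the chromosome, called or role-defining genes of the lists, and the 3 genes nearest in pattern to each called S100 gene. Pattern was compared as log2(CPM + 0.5). A result of the EF-hand list is not reported here.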

Additional observations from a re-analysis of the deposited data

Results flagged for a closer look

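A sample far from the other 3 of its group was found in 4 of the 59 groups examined, by its gap to the nearest other library as a share of the range of the group. Chance gives about 2.95. S100a4 in mature replicate 2 stood at 5.78 CPM, with a gap of 0.926 of the range, from 22 counts. S100a9 in mature replicate 4 stood at 0.603 CPM, with a gap of 1.0, since the other 3 mature libraries had 0 counts, and rests on 4 counts. Tlr4 in mature replicate 4 stood at 54.1 CPM (gap 0.903), and the log2 fold change of Tlr4 was 2.36 without that library. Hpcal1 in LP replicate 3 stood at 85.0 CPM (gap 0.859), and its log2 fold change was -1.996 without that library.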

How the results depend on the processing

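Under the 8 alternatives that keep all libraries, 3 S100 genes were called each time, 1 on the LP side and 2 on the mature side, and no tested S100 gene changed direction in any of the 16. Leaving out 1 library gave 1 to 3 called S100 genes, 0 to 1 on the LP side and 1 to 2 on the mature side. Where 0 were called on the LP side, without LP replicate 2 or 4, S100a16 had an unadjusted edgeR p under 0.05, so the count at that level was 1. S100a7a alone was called among the 4 neighbouring genes. That count was 0 with no filter (3 of 3 tested neighbours with an unadjusted edgeR p under 0.05) and 0 with a replicate block (1 of 1). It was also 0 with a minimum of 10 counts per library and 0 with thinning, where no neighbour was tested, and it was 1 with DESeq2 and 1 with the exact test. With 1 library left out it was 0 to 1. Without mature replicate 4, S100a11 had a log2 fold change of -0.0038 in place of -0.18. By library totals the mean level of S100a11 per kilobase was 516 in LP and 515 in mature cells, so its direction depends on the scaling of levels.

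Over all genes, 3161 were called, 2917 to 3791 under the alternatives with all libraries and 2338 to 3414 with 1 library left out. The replicate numbers of the labels are shared by the fractions, and the sample descriptions of an LP and a mature library with the same replicate number open with the same identifier, but no label says what it marks. Residuals of same-numbered libraries correlated at 0.113, 0.0618, 0.148 and 0.0844, and 7 of the 8 libraries correlated best with their own number. With the number as a replicate block, 3027 genes were called, 2757 of them shared with the fit without it, and 3 S100 genes were called. S100a4, S100a8 and S100a9 are limited by depth, with at most 22 counts in a library.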

Other observations

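For each called S100 gene the 3 genes nearest in library pattern are given. Nearness was the root mean square difference of gene-centred log2(CPM + 0.5) over the 8 libraries, a description with no test. The 3 genes nearest to S100a13 were Wdr45b at 0.0816, Tmeff1 at 0.0918 and Rbbp8, a DNA end resection factor, at 0.0993. Nearest to S100a16 were Sdhb, a subunit of succinate dehydrogenase, at 0.0910, Psmb3, a proteasome subunit, at 0.0976, and Mir8094 at 0.106. Nearest to S100a6 were Abraxas1 at 0.161, H2af-ps2 at 0.166 and Pdcd5 at 0.169. The called S100 gene with the widest spread among mature libraries, S100a6, was the one whose nearest genes lay farthest from it.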
